A study of Mus musculus with 15 samples.

Results

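Kidneys of middle-aged and young mice were compared in their linear and circular RNA, using 5 mice aged 12 months and 5 aged 3 months out of the 15 mice of an ageing series. The members were the 10 mice whose columns carry the numbers 17 to 21 (12 months) and 5 to 9 (3 months); the other 5 mice were 24 months old and are given only beside a result. All were male C57BL/6 animals with no transgene or treatment, fed standard chow at 25°C. The study's methods give a month of acclimation, urethane anaesthesia and killing on the same day for young and old mice, without naming the 12-month mice, and the day and hour of killing of the latter are not given in the sources used here. One sex, one inbred strain and whole kidney were studied, and the sample titles begin with 3MK at every age, so that age was taken from the age label and the column tags.

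Whole-kidney RNA is dominated by the proximal tubule, the segment that reclaims glucose, phosphate and amino acids from the filtrate, with smaller contributions from the thick limb, distal tubule, collecting duct, glomerulus, vessels and resident leukocytes. The kidney also carries a strong circadian clock. ARNTL (BMAL1) pairs with CLOCK or NPAS2 to switch on genes that hold E-boxes, among them the Per and Cry repressors and the D-box activator DBP, while NFIL3 represses the D-box genes that DBP activates. Ageing kidneys are known for gradual gain of lymphocytes and plasma cells, matrix around the tubules and loss of tubular stress tolerance. Circular RNAs (circRNAs) form when the end of an exon is spliced back to the start of the same or an upstream exon, and they are mostly cut from genes that also make linear mRNA.

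The 18 proximal tubule markers were present in every mouse, with a summed level between 2937 and 3193 FPKM (a fragment count corrected for transcript length and sequencing depth) at 3 months and between 2892 and 3241 at 12 months. Markers of neighbouring tissues were present at lower levels. Fat genes summed to 13.0 to 58.4 FPKM at 3 months and 18.2 to 56.3 FPKM at 12 months, and urothelium genes to 3.05 to 12.7 and 6.12 to 9.57 FPKM. The sum of 5 skeletal muscle genes was at most 0.605 FPKM, and that of 7 adrenal genes ran from 1.29 to 2.20 FPKM at 3 months and from 2.27 to 2.89 FPKM at 12 months, with 2 of the 7 risen, Star and the corticotropin receptor Mc2r (adjusted P = 0.0448). The 12-month libraries were deeper: 5.84 to 8.03 Gb of aligned bases estimated from transcript coverage, against 5.03 to 6.13 Gb at 3 months (2-sided exact permutation test over 252 assignments, P = 0.0317). Genes listed above 0 numbered 24462 to 25350 at 12 months and 23354 to 24198 at 3 months, and the ages were fully apart (exact permutation P = 0.00794). Within each age the shallowest library was that of mouse 8 and mouse 20.

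A gene's level is the sum of the FPKM of its transcripts, and a fold change is a difference of mean log2(FPKM + 1), which understates the change of low genes. Of 31637 genes tested with limma, 88 were higher at 12 months by more than 2-fold with an unadjusted P below 0.05 (0.278% of those tested) and 70 were lower (0.221%). With an adjusted P below 0.05 and no limit on fold, 62 were higher (0.196%) and 17 lower (0.0537%). That total of 79 became 1 with depth as a covariate and 12 without the shallowest library of each age, and it became 12, 14, 27, 17 and 30 without young mouse 5, 6, 7, 8 or 9 and 27 and 50 without old mouse 19 or 21. An unadjusted P below 0.05 alone was reached by 3620 higher genes (11.4%) and 917 lower genes (2.9%), and these are the shares against which each gene list is read. The lists and their members were chosen with earlier results of these data known. A list that exceeds these shares is therefore a description and not a test. The balance depended on the scaling. After rescaling each library to the same FPKM total (TPM) 3045 genes were higher and 1163 lower at that limit. After centring each library on its median 1417 genes were higher and 7590 lower. That median came from genes with a mean of at least 1 FPKM but was taken off all genes, those near 0 included. Thus 4 of 5 skeletal muscle genes, which summed to at most 0.605 FPKM, became lower. With depth as a covariate 2245 genes were higher and 548 lower. Counts of a list under those settings are read against these. Below, a gene is said to have risen or fallen when its unadjusted P was under 0.05, and it is named as called when it also passed 2-fold.

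By annotated class, 49 of 18618 protein-coding genes tested were called higher and 60 lower. Of 3281 processed pseudogenes 8 were higher and 2 lower, of 184 immunoglobulin variable genes 12 were higher, and of 13 immunoglobulin constant genes 6 were higher. No immunoglobulin gene was called lower. At least 1 mouse was listed at 0 in 33 of the higher and 13 of the lower genes. In 31 of the higher and 23 of the lower genes the 5 old values lay entirely apart from the 5 young ones, where 3.45% of all genes tested did so upward and 0.667% downward. The mean at 24 months lay nearer to the 12-month than to the 3-month mean in 48 of the 88 and in 54 of the 70. The share over all genes tested is not given for this, so these 2 counts are descriptions only.

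Members of the circadian clock differed in both directions. Of 12 core clock genes 4 fell, the 3 activators Arntl, Npas2 and Clock together with the repressor Cry1, and 3 rose, Per3, Nr1d2 and Cry2. Of 7 clock output genes Dbp and Ciart rose and Nfil3 fell. The counts for the core clock were 3 higher and 3 lower with depth as a covariate, and 2 higher and 4 lower after median centring.

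Arntl, the obligate partner of the activating complex, stood at 13.6, 16.7, 8.30, 9.81 and 11.2 FPKM in mice 5 to 9 and at 3.46, 2.66, 3.23, 3.92 and 6.16 FPKM in mice 17 to 21. The ages did not overlap, and the highest 12-month value was below the lowest 3-month value. The log2 fold change was -1.40 ± 0.21 (SE, n = 5 per age; adjusted P = 0.0448, limma). Npas2, which can stand in for Clock as that partner, went from 6.81, 6.04, 2.95, 3.97 and 5.56 to 2.18, 1.02, 1.35, 2.33 and 2.34 FPKM. Its ages were separate too, although the change of -1.08 ± 0.22 had an adjusted P of 0.0805. Clock itself, between 16.7 and 21.96 FPKM in the young and between 10.4 and 13.1 FPKM in the old kidneys, fell by a smaller 0.58 on the log2 scale (SE 0.09, adjusted P = 0.0495).

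Dbp, the D-box activator, was at 0.405, 0.0624, 2.14, 1.59 and 1.67 FPKM in the 3-month mice and at 10.4, 12.0, 12.7, 4.89 and 12.3 FPKM in the 12-month mice. Every old kidney held more than 2 times the Dbp of the highest young one, and the log2 fold change was 2.45 ± 0.35 (adjusted P = 0.0386). Nfil3, which acts on the same sites as a repressor, ran the other way, from 5.74, 6.70, 6.33, 11.7 and 10.0 FPKM to 0.902, 0.639, 1.18, 0.775 and 2.04 FPKM. Its change of -2.10 ± 0.22 (adjusted P = 0.0135) again left no overlap, and its 24-month mean was 0.668 FPKM. Per3, a Per family member, rose from 1.33, 1.41, 3.41, 3.796 and 1.87 to 6.17, 6.73, 4.72, 5.65 and 4.82 FPKM without overlap (log2 fold change 1.03 ± 0.22, adjusted P = 0.0853). The 2-fold calls of Npas2 and Per3 each depended on single mice (Npas2 on young mouse 5 and old mouse 18, Per3 on young mice 5, 6 and 9 and old mouse 18), since both changes lay close to that limit.

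Ciart, a repressor of the CLOCK complex, was at 0.618 to 2.89 FPKM in the young and 2.31 to 6.67 FPKM in the old kidneys. One old kidney, that of mouse 21, lay inside the young range (log2 fold change 1.17 ± 0.28, adjusted P = 0.111). Nr1d2 (REV-ERB beta), which represses Arntl, had means of 11.9 ± 2.78 and 18.3 ± 2.65 FPKM (SD) and also overlapped in mouse 21 (log2 fold change 0.61, adjusted P = 0.144). The changes of the repressors Cry1 (-0.73, adjusted P = 0.287) and Cry2 (0.30, adjusted P = 0.329) left the ages overlapping. Cry1 ranged from 0.693 to 4.14 FPKM among the young mice alone.

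The remaining clock genes described here did not pass the limit. Per1 had means of 11.3 and 9.08 FPKM (adjusted P = 0.598), Per2 of 4.81 and 4.63 (adjusted P = 0.889) and Rora of 7.72 and 7.87 (adjusted P = 0.906). Nr1d1, the paralog of Nr1d2, varied from 8.97 to 35.2 FPKM among the young mice and from 24.6 to 38.5 FPKM among the old ones (adjusted P = 0.467). Among outputs, Tef had means of 22.97 and 35.2 FPKM (adjusted P = 0.393), Hlf of 8.24 and 8.82 (adjusted P = 0.742), Bhlhe40 of 8.49 and 8.37 (adjusted P = 0.89) and Bhlhe41 of 0.561 and 0.542 (adjusted P = 0.915). At 24 months Arntl and Npas2 were lower still, with means of 1.45 and 0.523 FPKM, and Per3 and Dbp higher, with means of 9.34 and 12.3 FPKM, while Clock stood at 13.6 FPKM, close to its 12-month mean of 12.2. A difference between the ages in the day or hour of killing and a difference due to age cannot be told apart here. The same holds for the circRNAs of these genes.

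**Figure D1:**
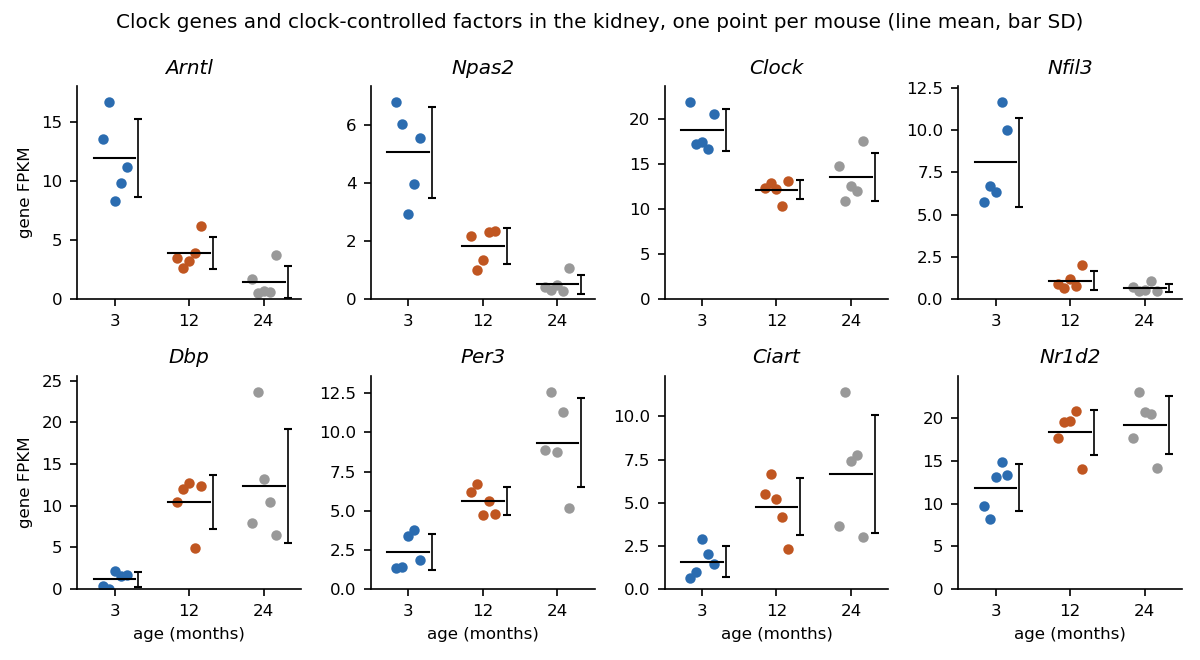
Gene FPKM of 8 clock genes and clock-controlled factors by age in months, 1 point per mouse with 5 mice per age, the line marking the mean and the bar 1 SD. Arntl, Npas2, Clock and Nfil3 are lower and Dbp and Per3 higher in all 5 mice of 12 months than in any mouse of 3 months, while Ciart and Nr1d2 overlap in 1 mouse.

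Upstream sequences were read for the clock genes because the activators and the D-box factors act through short DNA words. RefSeq sequence of GRCm38.p6 was searched in the 250 bases before each gene's start, on both strands, for the E-box CACGTG and for the D-box written as TTACGTAA or TTATGTAA, words that do not overlap each other. Of the 10 core clock genes with a sequence, 2 held an E-box (Cry1 and Per1) and 1 held a D-box (Per3), and of the 6 output genes 3 held an E-box (Bhlhe41, Ciart and Tef). Over all 32851 upstream sequences the shares were 6.02% for the E-box and 0.931% for the D-box. Ciart held 3 E-boxes, beginning 116, 58 and 44 bases before the start, and Per3 held 2 D-boxes, beginning 205 and 158 bases before it. The stretches chr3:95882229-95882478 (minus strand, Ciart) and chr4:151044666-151044915 (minus strand, Per3) are shown 5′ to 3′ with the matches in capitals. A match is a description of the letters and not a bound site.
Ciart: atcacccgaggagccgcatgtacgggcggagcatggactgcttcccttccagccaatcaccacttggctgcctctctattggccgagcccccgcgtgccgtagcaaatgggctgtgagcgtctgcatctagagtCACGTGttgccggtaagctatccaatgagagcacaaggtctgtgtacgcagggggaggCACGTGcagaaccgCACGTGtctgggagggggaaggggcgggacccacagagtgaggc
Per3: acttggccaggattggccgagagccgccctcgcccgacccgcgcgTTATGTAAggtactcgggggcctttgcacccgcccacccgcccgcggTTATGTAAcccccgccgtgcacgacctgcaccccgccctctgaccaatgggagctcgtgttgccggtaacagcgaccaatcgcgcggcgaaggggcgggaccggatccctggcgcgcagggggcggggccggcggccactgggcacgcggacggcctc

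Chaperones of the HSP70 system were lower at 12 months. Of 12 heat shock and cold-inducible genes 5 fell, all of them HSP70 chaperones or partners of HSP70 (Hspa1a, Hspa1b, Hspa8, Hsph1 and Dnajb1), and 2 rose, the cold-inducible RNA-binding proteins Cirbp and Rbm3. Against the 2.9% of all genes that fell and the 11.4% that rose, the fallen share of this list was 5 of 12, and it stayed at 5 with depth as a covariate.

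Hsph1, the HSP110 partner of HSP70, stood at 35.6, 26.1, 29.4, 30.8 and 39.2 FPKM in the young kidneys and at 17.1, 12.5, 14.3, 16.4 and 10.5 FPKM in the old ones. The ages were fully separated (log2 fold change -1.14 ± 0.15, adjusted P = 0.0245). Hspa8, the constitutive HSP70 and the most abundant of the group, went from 706, 579, 716, 897 and 743 FPKM to 342, 348, 417, 437 and 304 FPKM (-0.97 ± 0.18, adjusted P = 0.0666). The inducible HSP70 genes were lower by more: Hspa1a from 22.8, 6.90, 8.28, 9.48 and 10.8 to 3.56, 2.08, 3.23, 2.73 and 2.07 FPKM (-1.66 ± 0.28, adjusted P = 0.0515). Mouse 5 was far above the other young mice in Hspa1a, and the ages did not overlap with or without it. Hspa1b, its near copy, had means of 17.95 ± 7.80 and 3.27 ± 2.06 FPKM, with mouse 21 listed at 0 (adjusted P = 0.0848). Dnajb1, the HSP40 that hands clients to HSP70, fell by 0.90 (adjusted P = 0.128).

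Cirbp, which marks mild cooling and follows the body temperature rhythm, rose from 6.05, 3.32, 2.99, 6.42 and 5.44 FPKM to 9.44, 10.4, 10.3, 12.4 and 11.1 FPKM. All old kidneys were above all young ones (log2 fold change 1.05 ± 0.18, adjusted P = 0.0571). Rbm3, its relative, had means of 16.0 and 24.5 FPKM (0.58 ± 0.15, adjusted P = 0.133) and overlapped in mouse 21. The 2-fold call of Cirbp was lost without young mouse 6 or 7 or old mouse 20. The remaining 5 genes of the list did not pass the limit. At 24 months Hspa8 had a mean of 276 FPKM, Hsph1 of 13.4 FPKM, Hspa1a of 2.35 FPKM and Cirbp of 14.5 FPKM. As with the clock genes, a difference in the day or hour of killing and one due to age cannot be told apart here. The same holds for the endoplasmic reticulum stress genes below.

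Heat shock factor 1 binds inverted repeats of GAA, which were searched as GAANNTTC or TTCNNGAA, words that can overlap. Of the 8 genes of the list with an upstream sequence 6 held a match (Hspa1a, Hspa1b, Hspb1, Hspd1, Hspe1 and Hsph1), against 12.8% of all upstream sequences. Of these Hspa1a, Hspa1b and Hsph1 fell, while Hspb1, Hspd1 and Hspe1 did not. The stretches of Hspa1a (chr17:34972157-34972406, minus strand) and Hsph1 (chr5:149636337-149636586, minus strand) are shown because these genes separated the ages, with the element in capitals beginning 104 and 33 bases before the start.
Hspa1a: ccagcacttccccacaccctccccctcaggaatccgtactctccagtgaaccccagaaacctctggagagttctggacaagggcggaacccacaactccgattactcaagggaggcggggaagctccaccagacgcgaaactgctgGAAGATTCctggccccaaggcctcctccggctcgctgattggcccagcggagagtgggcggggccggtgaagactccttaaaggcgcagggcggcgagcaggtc
Hsph1: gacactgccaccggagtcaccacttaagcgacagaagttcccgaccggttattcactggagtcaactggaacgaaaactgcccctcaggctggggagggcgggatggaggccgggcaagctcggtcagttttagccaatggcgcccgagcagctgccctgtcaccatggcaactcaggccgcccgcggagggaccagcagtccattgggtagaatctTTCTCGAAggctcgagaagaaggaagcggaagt
The Hspa1a and Hspa1b stretches were identical at 247 of 250 bases (98.8%), and the transcripts are near copies as well, so the split of fragments between them is uncertain. Gm20481, also called lower (13.5, 5.70, 4.13, 3.92 and 6.67 against 1.32, 1.03, 1.83, 2.11 and 1.05 FPKM), lies inside the Hspa1a interval on chromosome 17 and may share its fragments.

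Genes of the endoplasmic reticulum stress response fell with them, 7 of 15 without any that rose. These were the chaperones and co-chaperones Hspa5 (BiP), Dnajb9, Hyou1, Sdf2l1 and Creld2, the transcription factor Xbp1 and the degradation factor Herpud1. Herpud1 went from 153, 118, 129, 155 and 104 FPKM to 101, 72.9, 80.4, 82.8 and 61.8 FPKM. All old values lay under all young values (log2 fold change -0.72 ± 0.15, adjusted P = 0.0862). Hspa5 fell by 0.60 (adjusted P = 0.0982) and Xbp1 by 0.74 (adjusted P = 0.111), again without overlap, and Dnajb9 was the only called member (-1.04, adjusted P = 0.33), with 33.6 FPKM in mouse 6 against 6.45 to 11.1 FPKM in the other young mice, and it kept its call only without young mouse 7 or 8 or old mouse 19. The count was 5 with depth as a covariate. The 19-base ER stress element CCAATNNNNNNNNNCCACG was present upstream of 5 of the 12 genes with a sequence (Calr, Creld2, Hsp90b1, Hspa5 and Pdia6), 0.113% of all upstream sequences holding it, and only Creld2 and Hspa5 of these fell.

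Immediate early genes, which respond within minutes to handling and tissue stress, gave 2 lower members of 12, Jun and Dusp1. Jun stood at 22.2, 9.72, 29.1, 0 and 29.95 FPKM in the young mice, while each of the 5 old mice is listed at 0, so that no fold can be given. Dusp1, a phosphatase that switches off stress kinases, overlapped between the ages (65.6 ± 8.01 against 36.1 ± 19.2 FPKM, adjusted P = 0.252), and its call was lost without young mouse 7 or 8 or old mouse 18 or 21. The median log2 fold change of the 12 genes was -0.68, against 0.02 for all genes tested.

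Genes of B cells and plasma cells were higher at 12 months. In whole tissue more cells of a type and more RNA per cell cannot be told apart. Of 16 B-lineage genes 11 rose and none fell, 6 of them called, against 11.4% of all genes. Ighm, the IgM heavy chain, was at 3.59, 3.05, 1.22, 1.61 and 8.62 FPKM in the young kidneys and at 104, 17.1, 18.6, 27.7 and 54.4 FPKM in the old ones. No value overlapped, and the log2 fold change was 3.16 ± 0.55 (adjusted P = 0.0571). Igkc, the kappa light chain, went from 25.7, 25.5, 8.57, 14.1 and 89.9 to 351, 50.5, 176, 238 and 361 FPKM, with young mouse 9 above old mouse 18 (2.97 ± 0.68, adjusted P = 0.101). The IgG1 heavy chain Ighg1 and the lambda light chain Iglc2 were called too (adjusted P of 0.137 and 0.122), as were Ighg2c and Jchain, and the call of Iglc2 was lost without old mouse 17. Cd79a, a signalling chain of the B cell receptor, was low but separate between the ages, with means of 0.0830 and 0.694 FPKM (adjusted P = 0.0782).

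The immunoglobulin variable segments, each counted apart from the constant genes, were higher too. Of 200 variable segments tested 48 rose, none fell and 12 were called, and their summed level ran from 12.1 to 80.4 FPKM at 3 months and from 81.1 to 248 FPKM at 12 months. The highest young mouse in the sum was again mouse 9. Ighv1-55, the called segment with the smallest P among those without overlap, had values of 0.238, 0.781, 0, 0.145 and 0.181 against 4.42, 2.77, 2.08, 1.31 and 2.39 FPKM (log2 fold change 1.47 ± 0.24, adjusted P = 0.0495) and a 24-month mean of 2.12 FPKM. Variable segments resemble one another, so fragments may be shared between them.

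Myeloid and antigen presentation genes moved less. Of 14 macrophage genes 6 rose and none fell (C1qa, Lyz2, Itgam, Fcgr1, Mpeg1 and Tyrobp), with C1qa and Lyz2 called but overlapping between the ages (adjusted P of 0.316 and 0.254). The call of Lyz2 was lost without young mouse 5 or 9 or old mouse 17, and that of C1qa without any 1 of 8 mice. The summed level was 39.2 to 70.8 FPKM at 3 months and 73.2 to 119 FPKM at 12 months. Of 10 MHC class II genes 4 rose (H2-Eb1, Cd74, Ciita and Ctss), of 14 T and NK genes 4 (Cd3e, Cd8b1, Ccl5 and Il7r), of 14 complement genes 3 (C1s1 and C3ar1 among them), of 14 MHC class I genes 1 (Tap2) and of 23 interferon-stimulated genes 1 (Mx1), which is below the 11.4% of all genes. Among 15 chemokines 4 rose and Cxcl1, a neutrophil attractant, was called lower (7.41 ± 4.39 against 2.16 ± 1.23 FPKM, adjusted P = 0.29), although not without young mouse 5, 7 or 9 or old mouse 17 or 21. The called riser, Cx3cl1 or fractalkine, which tethers CX3CR1-bearing monocytes, rose from between 2.77 and 7.44 FPKM to between 8.88 and 26.6 FPKM (log2 fold change 1.32 ± 0.33, adjusted P = 0.118).

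Young mouse 9 stood apart from the other 4 young mice in these groups. Its B-lineage sum was 155 FPKM where the others lay between 18.05 and 53.3, its MHC class II sum 493 where the others lay between 163 and 323, and its sum of 18 injury and senescence genes 1118 where the others lay between 270 and 428. Most of the last came from Spp1 (osteopontin), a secreted protein of stressed tubules, at 909 FPKM in mouse 9. Without mouse 9, 13 B-lineage genes, 7 MHC class II genes, 6 interferon-stimulated genes and 5 MHC class I genes rose, against 11, 4, 1 and 1 with it. With depth as a covariate the counts were 5 for the B lineage, 1 for macrophages, 1 for T and NK genes and 0 for MHC class II. After median centring 2 T and NK genes were higher and 1 lower. Only 1 of these 14 genes had a mean of at least 1 FPKM.

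**Figure D2:**
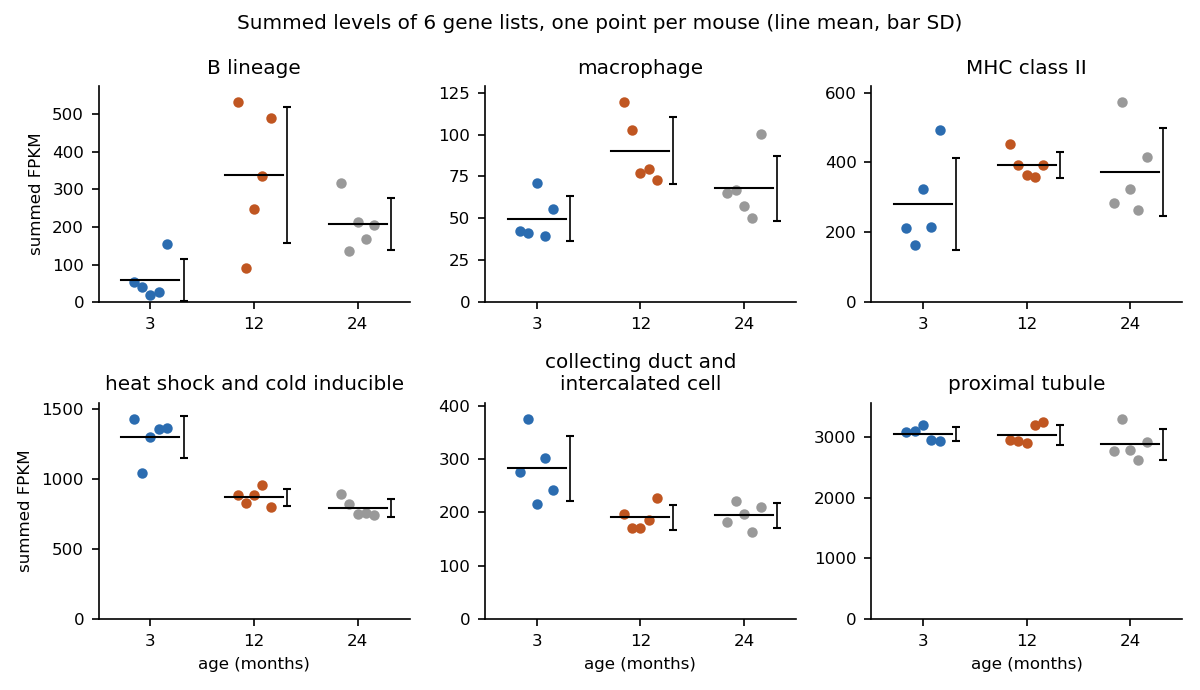
Summed FPKM of 6 gene lists by age in months, 1 point per mouse, the line marking the mean and the bar 1 SD. B-lineage and macrophage sums are higher at 12 months, with 1 young mouse high in the B lineage and MHC class II, while the heat shock sum is lower without overlap, the collecting duct sum is lower with overlap and the proximal tubule sum overlaps.

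Stroma and matrix genes rose in smaller steps. Of 10 mesenchyme and smooth muscle genes 5 rose (Pdgfrb, Des, Dcn, Lum and Mgp), and none was called or fell. Des (desmin), an intermediate filament of pericytes and smooth muscle, was at 1.48 to 2.35 FPKM in the young and 2.90 to 3.69 FPKM in the old kidneys (log2 fold change 0.52 ± 0.10, adjusted P = 0.0782). Dcn (decorin), which coats collagen fibrils, had means of 10.2 ± 3.70 and 20.9 ± 7.57 FPKM. Of 22 matrix and fibrosis genes 10 rose and none fell, among them the gelatinase Mmp2 (0.844 ± 0.211 against 1.82 ± 0.430 FPKM, no overlap, adjusted P = 0.0978), Mmp14, Tgfb1, Tgfb2, Lox and Fn1. With depth as a covariate 1 of the 10 mesenchyme genes and 4 of the 22 matrix genes were higher.

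Of 44 collagen genes 17 rose and 1 fell, and after median centring 7 were higher and 7 lower, where 1417 of all 31637 genes were higher and 7590 lower. With depth as a covariate none was higher and 2 were lower, against 2245 and 548 of all genes. Col1a1 and Col3a1, the fibrillar chains of scar tissue, had means of 2.60 and 5.80 FPKM and of 6.20 and 10.8 FPKM, both with overlap. Col8a1, a short-chain collagen of vessel walls, was the called member and went down, from 3.00, 3.71, 1.57, 2.68 and 1.75 to 0.215, 0.907, 1.23, 0.636 and 0.672 FPKM (log2 fold change -1.02 ± 0.22, adjusted P = 0.0838). Its highest old value lay below its lowest young one, and its call was lost without young mouse 5, 6 or 8, old mouse 17, or with depth as a covariate.

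Genes of cell division and protein synthesis also rose in counts that depended on scaling and depth. Of 30 proliferation genes 11 rose and 1 fell, with Mki67 at 0.329 ± 0.152 against 0.643 ± 0.0697 FPKM and no overlap, and Kif23, a midbody kinesin, lower at 2.17 against 3.85 FPKM. After median centring 4 rose, and with depth as a covariate 5 did. Ccnd1 (cyclin D1), which carries cells from G1 to S phase, was called, from 29.7, 23.7, 39.2, 33.8 and 41.8 to 53.8, 71.6, 64.0, 74.4 and 75.0 FPKM (log2 fold change 1.01 ± 0.16, adjusted P = 0.0495). The ages did not overlap, the 24-month mean was 73.2 FPKM, and the change dropped just under 2-fold without young mouse 5 or 6 or old mouse 18, 20 or 21. Of 64 replication-dependent histone genes 12 rose and none fell, with Hist2h2ac and Hist1h4n called although 4 of 5 young mice and 1 old mouse were listed at 0 in each. Of 86 cytosolic ribosomal protein genes 24 rose and 2 fell, 14 and 3 after median centring, and 3 and 0 with depth as a covariate. Of 82 nuclear respiratory chain genes 9 rose, close to the share of all genes, and of 39 proteasome genes 6 rose and 1 fell.

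**Figure D3:**
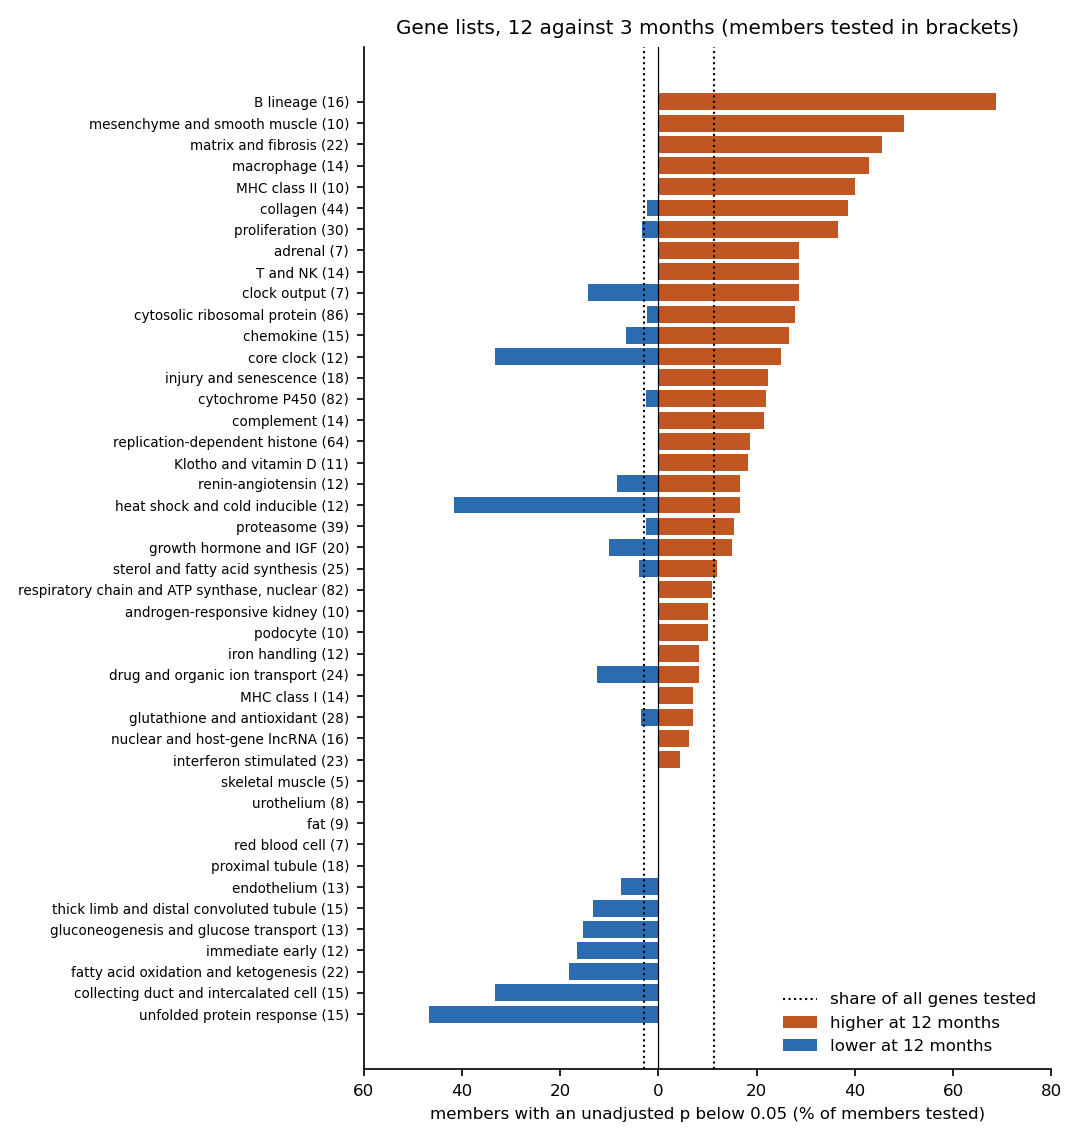
Share of the tested members of each of 44 gene lists with an unadjusted P below 0.05, in percent, higher at 12 months to the right and lower to the left. Dotted lines mark the same share over all genes tested, 11.4% and 2.9%. The lists were chosen with earlier results of these data known. The B lineage extends farthest to the right, and the unfolded protein response, heat shock, core clock and collecting duct lists extend farthest to the left.

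Genes that mark tubule segments changed little in the proximal tubule and more in the collecting duct. None of 18 proximal tubule genes passed the limit in either direction, and of 15 thick limb and distal tubule genes 2 fell, the calcium channel Trpv5 and the paracellular pore gene Cldn16. Of 15 collecting duct and intercalated cell genes 5 fell and none rose: Aqp2, the vasopressin-regulated water channel, and the intercalated cell genes Atp6v0d2, Slc4a9, Slc26a4 (pendrin) and Foxi1. Slc26a4 was at 16.9, 11.8, 16.5, 15.4 and 13.0 FPKM in the young mice and at 11.6, 9.29, 10.8, 10.4 and 11.3 FPKM in the old ones. Its ages were just separate (log2 fold change -0.42 ± 0.11, adjusted P = 0.119). Aqp2 varied widely among the young mice, from 25.9 to 134 FPKM, and was at 22.95 to 38.3 FPKM in the old ones (-1.17 ± 0.36, adjusted P = 0.191). Its 2-fold call was lost without young mouse 6, which had the highest value. With depth as a covariate 2 of the 15 fell and Aqp2 lost its call.

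Renin was the called member of 12 renin-angiotensin genes. Ren1, the enzyme that starts the cascade, was at 23.8, 177, 44.3, 82.7 and 37.6 FPKM in the young kidneys and 12.9, 9.77, 10.7, 29.4 and 22.4 FPKM in the old ones (log2 fold change -1.80 ± 0.52, adjusted P = 0.17). Old mouse 20 lay above young mouse 5, and the call was lost with depth as a covariate. Agtr1a and Nr3c2, the receptors for angiotensin II and aldosterone, rose (means of 17.1 and 21.8 FPKM, and of 3.63 and 5.22 FPKM). Of 11 Klotho and vitamin D genes Fgfr1 and the called Cyp24a1, which degrades active vitamin D, rose (Cyp24a1 28.8 ± 22.2 against 50.7 ± 14.2 FPKM, adjusted P = 0.3), the latter losing its call without any 1 of 6 mice.

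Of 13 gluconeogenesis and glucose transport genes 2 fell, G6pc and the sugar transporter Slc5a10. G6pc, the last step of glucose release, stood at 209.8, 275, 331, 204 and 236 FPKM at 3 months and at 144, 116, 101, 146 and 93.0 FPKM at 12 months. No old value reached the lowest young one (log2 fold change -1.06 ± 0.18, adjusted P = 0.0538), and the change dropped under 2-fold without young mouse 7 or old mouse 21. Of 22 fatty acid oxidation and ketogenesis genes 4 fell and none rose, with a median log2 fold change over the list of -0.04 and with Pdk4, the kinase that turns off pyruvate oxidation, at 19.1 to 53.0 FPKM against 1.54 to 18.6 FPKM (-1.68 ± 0.56, adjusted P = 0.22). Cyp4a14 and Ehhadh, both targets of the fatty acid receptor PPARA, were called with overlap (adjusted P of 0.32 and 0.291), calls that were lost without any 1 of 7 and of 6 mice. Irs2, an insulin receptor substrate from the growth hormone and IGF list, was called lower (24.6 ± 11.2 against 10.2 ± 4.98 FPKM, adjusted P = 0.304), but not without any 1 of 6 mice. Feeding state at death was not given and its part was not tested.

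Of 82 cytochrome P450 genes 18 rose and 2 fell, while after median centring, where 7590 of all 31637 genes fell and 1417 rose, 27 of the 82 were lower and 10 higher. Cyp2d12 was the largest, from 40.3, 83.9, 84.4, 74.9 and 64.5 to 205, 208, 206, 158 and 144 FPKM (log2 fold change 1.42 ± 0.21, adjusted P = 0.0448), so that every old kidney was above every young one, with 169 FPKM at 24 months. Its relative Cyp2d26 went the other way, from between 31.7 and 98.0 to between 21.6 and 32.8 FPKM (-1.03 ± 0.29, adjusted P = 0.151; call lost without young mouse 6 or 8 or old mouse 18). Cyp2c44, which makes epoxy fatty acids, rose from between 12.0 and 16.5 to between 21.9 and 44.3 FPKM (1.04 ± 0.18, adjusted P = 0.0571), just under 2-fold without young mouse 5 or old mouse 20 or 21. Cyp4f13 rose by less but in a tight range, 10.4 ± 0.902 against 14.0 ± 0.467 FPKM (adjusted P = 0.0495). Within these families reads can be shared between near copies, and the split among them is uncertain.

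Of 10 androgen-responsive kidney genes only Cyp2e1 rose (518 ± 29.3 against 698 ± 83.8 FPKM, adjusted P = 0.269) and none fell. Odc1, Gusb, Slco1a1, Cyp4b1, Cyp7b1, Cyp2j13 and Adh1 had adjusted P values between 0.537 and 0.968. Kap, the most abundant androgen-driven transcript of the male proximal tubule, was at 4829.6 to 9428 FPKM at 3 months and 6399 to 9058 FPKM at 12 months (adjusted P = 0.92). Havcr1 (KIM-1), the standard marker of proximal tubule injury, was called with values of 1.58, 0.187, 0.925, 0.717 and 1.04 against 5.29, 8.43, 1.37, 2.47 and 2.49 FPKM. Old mice 17 and 18 were the high ones, and old mouse 19 lay inside the young range (log2 fold change 1.27 ± 0.37, adjusted P = 0.17), and the call was lost without old mouse 18. At 24 months its mean was 0.979 FPKM. Hmox1 (heme oxygenase), Scd2 (a fatty acid desaturase) and Snhg18 (a lncRNA) completed the called members of the lists, and young mouse 5 stood at 105 FPKM in Hmox1 where the other 4 lay between 12.4 and 39.5. The call of Hmox1 was lost without young mouse 6 or old mouse 17 or 18, that of Scd2 without old mouse 17, that of Snhg18 without any 1 of 8 mice, and all 3 with depth as a covariate.

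The other lists moved little. Of 20 growth hormone and IGF genes 3 rose and 2 fell, of 24 drug and organic ion transporters 2 rose and 3 fell, of 28 glutathione and antioxidant genes 2 rose and 1 fell, and of 25 sterol and fatty acid synthesis genes 3 rose and 1 fell. Of 10 podocyte genes, 12 iron genes and 16 lncRNAs 1 rose in each, of 13 endothelial genes 1 fell, and none of 7 red blood cell, 9 fat or 8 urothelium genes passed the limit. Genes of the mitochondrial genome were not tested.

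Outside the lists, genes of several functions separated the ages. Nop10, a core protein of the snoRNPs that guide pseudouridylation, was at 9.07, 15.8, 11.3, 7.74 and 12.2 FPKM in the young and 2.82, 2.68, 1.91, 2.66 and 2.16 FPKM in the old kidneys. The lowest young value was over 2 times the highest old one (log2 fold change -1.80 ± 0.17, adjusted P = 0.0103). Rhobtb1, a protein of the cullin 3 system, fell from between 20.4 and 29.1 to between 8.09 and 14.3 FPKM (-1.02 ± 0.15, adjusted P = 0.0392). Upward, Ehd4, an endosomal membrane protein, rose from 4.27, 5.38, 7.47, 3.56 and 4.77 to 12.6, 10.3, 11.0, 11.4 and 13.2 FPKM (1.09 ± 0.15, adjusted P = 0.0376). Gpc3 (glypican 3), a heparan sulfate proteoglycan, went from between 2.95 and 4.82 to between 7.12 and 12.6 FPKM (1.11 ± 0.17, adjusted P = 0.0448), and Ces2h, a carboxylesterase, from between 0.603 and 1.54 to between 2.47 and 3.72 FPKM (1.02 ± 0.15, adjusted P = 0.0432). None of these 5 genes overlapped between the ages. The mean at 24 months was 3.99 FPKM for Nop10, 14.4 for Rhobtb1, 11.3 for Ehd4, 6.78 for Gpc3 and 3.19 for Ces2h. The 5 values of Nop10 at 24 months were split, at 1.73, 2.49, 1.49, 6.76 and 7.47 FPKM. All but Nop10 lost their call with depth as a covariate, and without single mice so did Rhobtb1 (young 6, old 18 or 21), Ehd4 (young 8) and Ces2h (young 6 or 8, old 18 or 21).

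Other strongly separated features were short, predicted or sensitive to how transcripts were assigned. Gm45495 had no listed expression in any of the 5 young mice and stood at 1.07 to 1.84 FPKM in the old ones (adjusted P = 0.00187), so no fold is given, and at 24 months its mean was 0.690 FPKM with an SD of 1.06. Gm37052 ran in the opposite sense, at 1.15 to 1.41 FPKM in the young mice and at 0 in 4 of 5 old mice. Gm22442, a small Cajal body RNA, was at 0 to 0.566 FPKM in the young and 2.94 to 22.4 FPKM in the old kidneys (log2 fold change 3.59 ± 0.47, adjusted P = 0.0245). Gm6309 and the pseudogene Rplp0-ps1 rose by 1.21 and 1.25 on the log2 scale (adjusted P of 0.0167 and 0.0513), and the latter may collect fragments of its parent gene. Mal2 (-2.11 ± 0.39, adjusted P = 0.0698) had 1 old mouse at 11.4 FPKM and the other 4 between 1.86 and 2.64. Mrps6, a mitochondrial ribosomal protein, had a log2 fold change of -1.81 ± 0.32 that became 0.047 when only transcripts matching the annotation exactly were summed.

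Circular RNAs changed in both directions in about equal number. The circRNA table was tested on its counts with edgeR, on 11923 circRNAs. At an adjusted P below 0.05, 410 were higher at 12 months (3.44% of those tested) and 381 lower (3.2%). They came from 459 host genes, 296 with higher and 163 with lower circles. No host had both, but 326 of the 459 had only 1 called circle and could not. Circles of the other 133 hosts can share counts. Most changes were small: the median log2 fold change was 0.62 for the higher and -0.48 for the lower circles, and 60 higher and 26 lower circles passed 2-fold. The values in counts scaled by the library total after TMM adjustment (CPM) did not overlap between the ages for 304 of the 410 and 278 of the 381, where 3.82% and 4.21% of all tested circles were so separated. Without young mouse 8, 190 were higher and 133 lower, without old mouse 17, 18, 19 or 21, 256, 242, 173 and 215 were higher and 197, 163, 135 and 162 lower, and without old mouse 20, 173 were lower.

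The counts of circles were not independent of each other or of the linear gene. In 11843 pairs in which 1 circle lies within another of the same host, over 1536 hosts, the longer circle had at least the count of the inner one in all 11843. The listed counts of nested circles are thus shared, and the median circRNA FPKM was 0.834 of the host's FPKM at 3 months. Circles of 6 or more exons were called in 7.77% of cases, with a median count of 570.1, and single-exon circles in 4.38%, with a median count of 87.5. Reads of the circle and of linear RNA over shared exons cannot be told apart in these counts. Which reads make them up is not given. At 3 months Slc4a4 circRNA5314, of exons 6 and 7, had a mean count of 4049. The circles of exons 5 and 6 and of exons 7 and 8 had 835 and 1365. Reads from the introns between exons may be counted, as may fragments that join exons 6 and 7, and neither was tested.

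The fold changes of called circles had the sign of the host gene's in most cases. Since circle and linear reads over shared exons cannot be told apart, the counting can itself produce such a match. The share over all tested circles is not given, so the counts that follow are descriptions only. The sign of the circle's fold change matched that of its host in 698 of 791 (88.2%), and in 432 of these the host itself had a P below 0.05. Across the called circles Pearson's r between circle and host fold change was 0.79, and across 11920 circles 0.56, as descriptions over features that share libraries and exons. Some circles of genes already described were called. Circles of Clock (circRNA1857 and circRNA749), of Hspa8 (circRNA3695), of G6pc (circRNA2454) and of Ehhadh (circRNA3318 and circRNA8260) were lower, and circles of Per3 (circRNA7291 and circRNA8526), Nr1d2 (circRNA407) and Cyp2d12 (circRNA6512) were higher. Other circles of these hosts did not pass, namely circRNA9072 and ciRNA1008 of Clock (-0.34 and -0.37), circRNA9964 of Nr1d2 (0.49), ciRNA1065 of Cyp2d12 (1.003) and ciRNA520 of Hspa8, which at 0.24 had the sign opposite to its host. The Per3 circle of 3 exons had a log2 fold change of 1.93 and that of 16 exons 1.43, with 1.03 for the linear gene.

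The 12 circles with the smallest P, 6 in each direction, are described one by one. For 3 whose linear gene did not pass the limit (Lrig2, Ctnna2 and Wdr44), and for the Npas2 and Syt1 circles, the back-splice junction is shown as 30 bases of GENCODE M21 transcript sequence on GRCm38, with the end of the last exon in lower case and the start of the first exon in capitals.
circRNA1091 Npas2: cttggacatttaccgAGCCTCTCGAAATAA
circRNA9624 Lrig2: gtcactgaaatacctGGATTTGAGTCATAA
circRNA5241 Ctnna2: gacagacttcacaagACTGGAAGGAAAGAG
circRNA10445 Syt1: tgggtggcttatctgGAAAAGAAGACTTTG
circRNA4734 Wdr44: ctttcatggtctaaaATAATTGAAAGTATT

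The Npas2 circle, circRNA1091 (exons 3 to 5 of 21, chr1:39287468-39300733, plus strand), had the strongest fall. It stood at 46.8, 43.9, 19.5, 31.03 and 37.3 CPM in the young and 8.31, 6.58, 6.65, 11.5 and 12.5 CPM in the old kidneys. No values overlapped, and the log2 fold change was -1.98 ± 0.24 (adjusted P = 0.00207, edgeR). The linear gene changed by -1.08, and relative to the host the circle was lower still by 0.76 on the log2 scale (SE 0.12, adjusted P = 0.0214). Its mean count at 24 months was 32.1, beside 277 at 3 and 78.8 at 12 months. The circle of Lrig2, a regulator of growth factor receptors (circRNA9624, exons 2 to 4, chr3:104494058-104497554, minus strand), went from 11.9 to 15.9 CPM down to 6.55 to 8.73 CPM (-0.85 ± 0.12, adjusted P = 0.00451), with a host change of -0.24 (adjusted P = 0.388) and a change relative to the host of -0.58 (adjusted P = 0.0275).

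Circles of Tbc1d14, an autophagy regulator, gave 2 of the 6 strongest falls and share exons 2 and 3. circRNA1844 went from 105, 148, 131, 173 and 158 to 77.3, 67.4, 80.7, 67.9 and 85.2 CPM (-0.92 ± 0.13), and circRNA1843 by -0.87 ± 0.12, beside a host change of -0.72. circRNA3509 of Atp2a2 (SERCA2, the calcium pump of the endoplasmic reticulum) fell from 574 to 677 CPM down to 381 to 452 CPM (-0.63 ± 0.08, adjusted P = 0.00294). Its host fell by 0.61 (131 ± 11.4 against 85.6 ± 7.08 FPKM, adjusted P = 0.0432), and relative to the host the circle differed by -0.08 (adjusted P = 0.716). circRNA10177 of Unc5c, a netrin receptor, changed by -0.71 and its host by -0.40.

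Upward, circRNA5241 of Ctnna2, an alpha-catenin of neurons (exons 9 to 16 of 20, chr6:76932346-77143943, minus strand), was at 5.16, 3.64, 6.41, 2.52 and 3.54 CPM in the young and 25.6, 37.3, 27.4, 18.4 and 20.8 CPM in the old kidneys. The lowest old value was over 2-fold the highest young one (log2 fold change 2.61 ± 0.24, adjusted P = 0.000618). Its linear gene was at 0.186 to 0.822 FPKM and 0.0727 to 3.8004 FPKM (adjusted P = 0.706). circRNA10445 of Syt1, a synaptic vesicle calcium sensor (exons 3 to 10 of 12, chr10:108583874-108902315, minus strand), rose from 0.719 to 2.58 CPM up to 6.45 to 10.8 CPM (2.40 ± 0.25, adjusted P = 0.00101). The linear gene was 4.42 times higher by its means, 0.0402 and 0.177 FPKM, without overlap (adjusted P = 0.0882), and lay under that of the circle itself (0.308 and 1.63 FPKM). Both hosts were below a mean of 1 FPKM over the 10 mice and the circles were not tested relative to them.

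The remaining higher circles differed in their relation to the host. circRNA6703 of Brca2, a DNA repair gene (exons 9 to 20 of 27), rose from 11.6 to 17.6 CPM up to 27.8 to 32.2 CPM (1.11 ± 0.12, adjusted P = 0.00101), but relative to its host it was lower by 0.45 (adjusted P = 0.0788), the host mean having gone from 1.07 to 2.70 FPKM. The circle's own means were low, 0.414 and 0.852 FPKM, so the 1 added before the log damped its change more than the host's. circRNA4734 of Wdr44, a RAB11 effector (exons 4 to 13 of 20, chrX:23756440-23788165, plus strand), rose from 50.4 to 61.7 CPM up to 88.1 to 108 CPM (0.75 ± 0.08), beside a host change of 0.18 (adjusted P = 0.427) and a relative change of 0.44 (adjusted P = 0.212). circRNA6089 of Ccdc30 rose by 1.17 and its host by 0.47. circRNA7061 of Ano4, a low-expressed anoctamin, rose by 1.29 ± 0.15, from 12.4 to 22.2 CPM up to 32.3 to 45.8 CPM, with a mean count of 131 at 3, 360 at 12 and 539 at 24 months. Its host had means of 0.447 and 0.830 FPKM at 3 and 12 months, without overlap (log2 fold change 0.34, adjusted P = 0.101, limma). With the host below a mean of 1 FPKM, the circle was not tested relative to it.

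**Figure D4:**
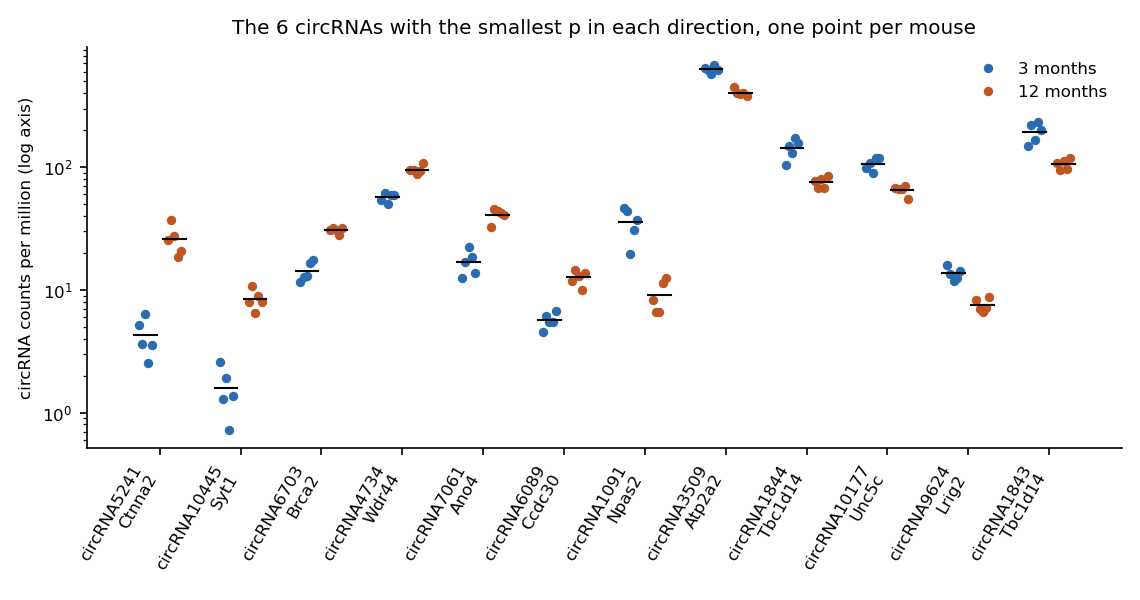
CPM of circRNAs on a log axis for the 6 circRNAs with the smallest P in each direction, 1 point per mouse, 5 mice per age, the line marking the mean. For all 12 the 3-month and 12-month points do not overlap.

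Circles were also tested relative to the linear gene, as log2(circRNA FPKM + 1) minus log2(host FPKM + 1) with limma. The added 1 damps the changes of low circles. Because the counts cannot separate circle from linear reads over shared exons, this ratio can be held near constant by the counting, and a low number of calls does not show that few circles changed on their own. Nor does a call show that a circle changed on its own, since the counts may hold intron reads. Of 11640 circles whose host had a mean of at least 1 FPKM, 5 were higher relative to the host (0.043%) and 48 lower (0.412%) at an adjusted P below 0.05. Of these 53, 34 were circles of 1 gene, Slc4a4, and 4 of Fmn1. Others lower than their host included the Npas2 and Lrig2 circles and circRNA7415 of Clpx, a mitochondrial protease subunit, which went from 259 to 152 CPM while the linear gene stood at 30.98 and 29.4 FPKM. For the Fmn1 circles and for circRNA9047 of Ncapd2 the circle itself did not change and the host was higher. ciRNA135 of Cit counted as lower (-0.48, adjusted P = 0.028), although its mean went from 0.288 to 0.572 FPKM and its host's from 3.46 to 6.55 FPKM. Higher than their host were ciRNA776 of Nisch, ciRNA718 of Tardbp, circRNA5723 of Pde4d, circRNA10073 of Itpr1 and circRNA10731 of Kansl1l.

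Slc4a4 encodes NBCe1, the sodium bicarbonate cotransporter through which the proximal tubule returns bicarbonate to blood. Of its 50 tested circles 37 were lower at 12 months and none higher, more than for any other host. By size, 35 of 43 circles of 2 or more exons, both intronic circles and none of 5 single-exon circles were lower. Linear Slc4a4 was at 160.4, 201, 168, 202 and 186 FPKM in the young and 220.2, 218, 189.9, 176 and 171 FPKM in the old kidneys, with overlap (log2 fold change 0.08 ± 0.12, adjusted P = 0.746). The circle of 2 exons at chr5:89084642-89122559 (plus strand), circRNA752, had the largest exonic change, from 175 ± 28.3 to 110 ± 21.6 CPM (-0.66 ± 0.15, adjusted P = 0.0226). circRNA751, which spans 14 exons at chr5:89038451-89199816, went from 1048 to 709 CPM (-0.56 ± 0.13, adjusted P = 0.0259). The multi-exon circles lay between -0.66 and -0.17 with a median of -0.44, and the single-exon ones between -0.31 and 0.03 with a median of -0.03. These circles overlap one another within 1 locus and their counts cumulate, so they are not 37 separate observations. The counts may also hold reads from the introns that the circles span. Whether back-spliced RNA or such reads fell was not tested.

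**Figure D5:**
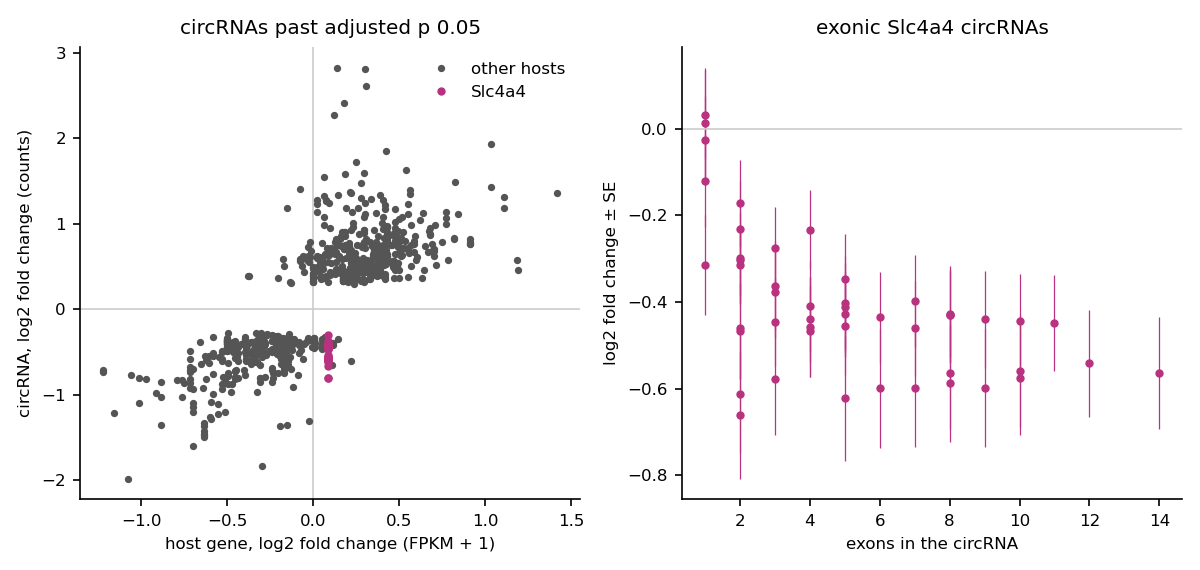
Left, log2 fold change of each called circRNA against that of its host gene's linear FPKM, with Slc4a4 circles marked. Right, log2 fold change ± SE of the exonic Slc4a4 circRNAs by the number of exons they hold. The called Slc4a4 circles on the left lie below 0 where the host lies at 0.08, and on the right the 5 single-exon circles have a median of -0.03 against -0.44 for those of 2 or more exons.

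Among other hosts with many called circles the linear gene usually changed in the same direction, which reads shared in the counting can also produce. Itpr1, an inositol trisphosphate receptor, had 22 of 43 circles lower with a host change of -0.50, Btaf1 14 of 20 with -0.35, Dmxl1 11 of 13 with -0.31, Jmjd1c 10 of 14 with -0.33, Tbc1d14 8 of 10 with -0.72 and Ndrg1 6 of 6 with -0.70. Dnah7b, an axonemal dynein of motile cilia, had 13 of 14 circles higher with a host change of 0.43. Lrrk2, a kinase of the lysosomal system, and Ptprd, a receptor phosphatase, had 9 of 26 circles higher and 8 of 23 lower beside host changes of 0.00. By list, cytochrome P450 hosts gave 6 higher circles of 37 and drug transporter hosts 6 of 62, none lower, where 3.44% of all circles tested were higher and 3.2% lower. Cyp2j7, Cyp2j9, Slc22a2, Slc22a30 and Slco1a6 gave 2 each, and circles of 1 host need not be independent. The 90 circles of the 9 hosts on the proximal tubule list, which does not hold Slc4a4, gave 1, lower, of Slc6a18.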

How the data were processed

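RNA of 15 kidneys was depleted of ribosomal RNA and sequenced as stranded libraries per the labels. The study's methods instead describe oligo(dT) selection of mRNA, which would bear on circRNA values, and the sources disagree on this. The authors aligned reads to GRCm38 and assembled transcripts with StringTie (TopHat and TopHat2 are listed too), and deposited FPKM and coverage per transcript. How circRNAs were called and their estimated counts made is not given in the sources used here. The deposited circRNA estimated counts are mostly not whole and were rounded. Gene FPKM was summed over transcripts with class codes =, c, j or o (111596 of 129029). The columns were mapped by their age tags, and none was left without a sample. Aligned bases were estimated per library as the median ratio of deposited coverage to FPKM over transcripts above 1 FPKM. Genes above 0 in any of the 10 mice were tested with limma 3.58.1 (trend) on log2(FPKM + 1), and circRNAs above 0 in 5 mice with the edgeR 4.0.16 quasi-likelihood test, TMM. The test relative to the host was limma on log2(circRNA FPKM + 1) minus log2(host FPKM + 1). P-values were adjusted by Benjamini-Hochberg over all features. DESeq2 1.42.0, R 4.3.3, Python 3.11.15 and GENCODE M21 were used. The steps were tested on simulated data. Replicates are separate mice per the labels.

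Named genes were the 12 of smallest P per direction among called, non-overlapping genes, the called or adjusted-significant list members (up to 4 per list; clock and androgen lists in full) and the 6 circRNAs of smallest P per direction. A few list members are counted but not reported by name here. Other genes and circles named were chosen after their values were seen. Members and the 45 lists (44 with a member tested) were chosen with earlier results of these data known. Alternatives covered pseudocount, filters, scaling, all 15 mice, class codes, depth and leaving out each mouse.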

Additional observations from a re-analysis of the deposited data

Results flagged for a closer look

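In 216 groups of 5 mice checked, 13 held 1 value far from the other 4, where chance gives about 1 in 20 groups. Among genes these were Rhobtb1 at 29.1 FPKM in young mouse 6, Hspa1a at 22.8 and Gm20481 at 13.5 FPKM in young mouse 5, Cyp7b1 at 47.8 FPKM in young mouse 7, Gm37052 at 0.720 FPKM in old mouse 20, Mal2 at 11.4 FPKM in old mouse 19, and Cry1 at 0.378 FPKM in old mouse 21. Rhobtb1, Hspa1a, Gm20481, Gm37052 and Mal2 did not overlap between the ages with these values included.

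Among summed lists, 3 stood out in young mouse 9: the B lineage at 155 FPKM, mesenchyme and smooth muscle at 103 FPKM, and injury and senescence genes at 1118 FPKM. Clock output genes summed to 35.7 FPKM in young mouse 5, below the other 4 young mice. Old mouse 17 had the highest sums of fat genes (56.3 FPKM) and urothelium genes (9.57 FPKM) of its age. No member of the fat or urothelium lists passed an unadjusted P of 0.05 in the comparison of ages.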

How the results depend on the processing

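The number of genes called higher, 88, was 672 with a pseudocount of 0.1, 273 after rescaling to TPM and 55 among genes above 0 in all 10 mice, and ran from 77 to 102 when a mouse was left out. The number called lower, 70, was 251 with a pseudocount of 0.1 and 203 as TPM, and ran from 60 to 79. Median centring gave 78 higher and 92 lower. Genes with an adjusted P below 0.05, 79 in all, numbered 299 with all 15 mice in the fit, 123 among genes above 0 in all 10 mice, 28 after median centring, 27 with exact annotation matches only, 24 with a robust prior, 12 without the shallowest library of each age and 1 with depth as a covariate, and ran from 12 (without young mouse 5) to 76. The cause of these moves was not tested.

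CircRNAs higher, 410, numbered 244 by limma on circRNA FPKM, 5 relative to the host gene, 82 without the shallowest library of each age and 173 to 401 with a mouse left out. CircRNAs lower, 381, numbered 636 by DESeq2, 578 with all 15 mice, 48 relative to the host, 44 without the shallowest libraries and 133 to 407 with a mouse left out. Over all 158 called genes, 156 kept their sign with exact annotation matches only. Among the named genes and circRNAs 2 values reversed: Mrps6 became 0.047 with exact annotation matches, and circRNA6703 of Brca2 became -0.45 relative to its host.

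Of 79 named genes 44 kept the same call whichever mouse was left out, and 47 kept it with depth as a covariate while 27 lost it. Depth and age differ together in these libraries. No paired analysis was possible because the ages share no mouse numbers. The fits without the shallowest libraries, above 0 in all 10 mice and relative to the host were chosen after seeing the data.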
